A study of Mus musculus with 4 samples.

Results

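RNA of the 8 genes Cd207, Itgax, Epcam, Cd83, Cd86, Ccr7, Flt3 and Zbtb46, which are used to recognise Langerhans cells and other dendritic cells, was compared between back skin of K5-IKKbeta transgenic mice and back skin of wild type mice. All probe sets whose only symbol in the annotation of the array platform is one of these 8 genes were taken, which gave 13 of the 45101 probe sets on the array. Zbtb46 had 4 of them, Epcam and Cd86 had 2 each, and Cd207, Itgax, Cd83, Ccr7 and Flt3 had 1 each. In K5-IKKbeta mice, control elements of the keratin K5 gene drive IKKbeta in basal keratinocytes of epidermis and hair follicle; this kinase switches on NF-kB signalling. There were 2 arrays of K5-IKKbeta skin and 2 arrays of wild type skin, each with pooled RNA of 3 mice of its genotype. Every mouse was a male of 32 days on a C57BL6 X DBA2 background. Errors and p-values therefore rest on how pools vary, and variation from mouse to mouse was not measured. Whether the transgenic pools came from 1 line or several was not given in the sources used here.

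Langerhans cells are the dendritic cells that live among the keratinocytes of the epidermis, where they take up antigen and show it on MHC class II molecules. They carry langerin, the product of Cd207, and are kept up by signals through the receptor Csf1r and by TGF-beta. When they are activated, Langerhans cells and dermal dendritic cells raise the costimulatory and maturation proteins Cd86 and Cd83 and the chemokine receptor Ccr7, and travel to the lymph node. The receptor Flt3 and the transcription factor Zbtb46 belong to the conventional dendritic cell lineage.

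The genes of langerin, CD11c, the maturation proteins Cd83 and Cd86 and the receptor Ccr7 were higher in K5-IKKbeta skin, while Epcam and the lineage genes Flt3 and Zbtb46 did not pass the test. Of the 13 probe sets, 6 were higher in K5-IKKbeta skin, 0 were lower and 7 did not pass (adjusted p under 0.05 from limma, adjusted over 45037 probe sets). At an unadjusted p under 0.05, 1 was lower. The 6 belong to 5 genes, Itgax, Cd207, Cd86, Cd83 and Ccr7, and the other 3 genes were Epcam, Flt3 and Zbtb46. Among all tested probe sets 10.4% were higher and 5.90% lower, so that 16.3% passed in either direction, against the 46.2% of the 13 that were higher. The median log2 fold change, always K5-IKKbeta minus wild type, was 0.28 over the 13 probe sets and 0.00 over all tested probe sets. Arrays of the genotypes did not overlap for 9 of the 13 probe sets, against 56.1% of all tested probe sets. In whole skin, more cells that hold an RNA and more of that RNA per cell cannot be told apart.

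**Figure D1:**
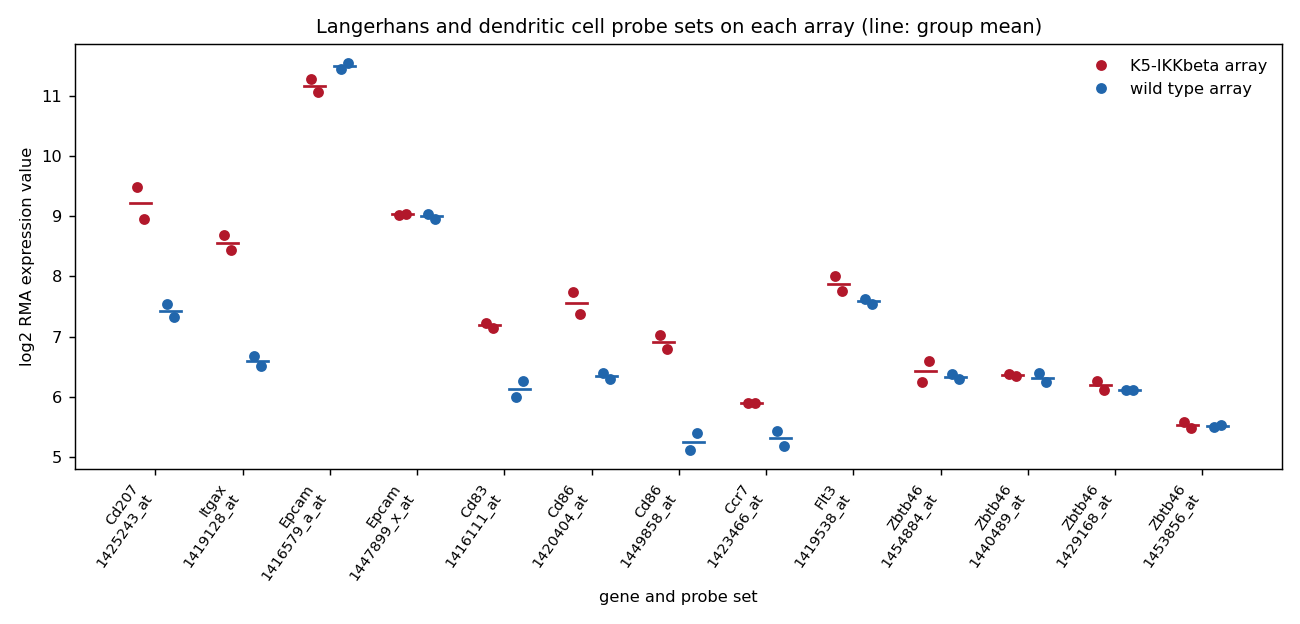
Log2 RMA expression values (vertical axis) of the 13 probe sets (horizontal axis) on the 2 K5-IKKbeta arrays (red, left) and the 2 wild type arrays (blue, right), with a line at each group's mean. Both K5-IKKbeta points lie clear of both wild type points for Cd207, Itgax, Cd83, both Cd86 probe sets and Ccr7; heights of different probe sets are not comparable.

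The arrays were alike in scale, with median log2 values of 6.96 and 6.95 for K5-IKKbeta and 6.92 and 6.91 for wild type. Arrays of 1 genotype correlated at r = 0.994 (K5-IKKbeta) and 0.996 (wild type) across probe sets, which are not replicates, and arrays of different genotypes at 0.965 to 0.969. Of 5 probe sets for Ikbkb, the gene of IKKbeta, 3 were higher in K5-IKKbeta skin, and the clearest, 1454184_a_at, measured 8.77 and 8.74 in K5-IKKbeta skin and 6.50 and 6.54 in wild type skin (log2 fold change 2.24, adjusted p = 1.0e-04). The calls of the other 2, 1426207_at and 1426333_a_at, were lost in 3 and 4 of the 4 fits with an array left out (adjusted p up to 0.28 and 0.21). Whether the probes match the transgene was not analysed here. The epidermal keratins Krt5 and Krt14 lay above the 99th percentile of both wild type arrays. The hair follicle list fell in 14 of 16 genes (median log2 fold change -3.53) and the melanocyte list in 8 of 8 (median -1.44). Leaving out wild type array 1 or 2 lowered the number of changed probe sets from 7351 to 2663 or 2529.

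Cd207 encodes langerin, the C-type lectin that forms the Birbeck granules of Langerhans cells. Its probe set 1425243_at measured 9.48 and 8.96 on the K5-IKKbeta arrays, against 7.54 and 7.32 on the wild type arrays. Both K5-IKKbeta pools lay above both wild type pools, with 1.41 log2 units between the nearest arrays, and the first K5-IKKbeta pool was the highest. The group means were 9.22 ± 0.37 in K5-IKKbeta skin and 7.43 ± 0.16 in wild type skin (SD, n = 2 each). This is a 3.45-fold rise with a 95% interval of 2.52 to 4.72 (adjusted p = 0.0018). The log2 difference lay at percentile 99.4 of all tested probe sets.

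Itgax encodes the integrin CD11c, the usual surface marker of dendritic cells, which some macrophages carry as well. Probe set 1419128_at measured 8.68 and 8.43 in K5-IKKbeta skin and 6.68 and 6.51 in wild type skin. The genotypes were 1.75 log2 units apart at their nearest arrays, the widest such gap among the 13 probe sets. Its rise was 3.89-fold with a 95% interval of 3.11 to 4.87 (adjusted p = 3.6e-04), and 1.83 to 2.09 on the log2 scale when each array was left out in turn. Within an array, Itgax minus Cd207 was -0.80 and -0.53 in K5-IKKbeta skin and -0.86 and -0.81 in wild type skin, a change of 0.17. The genotypes did not overlap, but their nearest values, -0.80 and -0.81, were almost equal. The exact two-sided permutation p was 0.333, the smallest that 2 arrays against 2 allow, so this test could not have shown a difference.

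The promoters of these 2 genes, which had the largest differences among the genes with an entry in the promoter table, are shown for the letters they hold. They are 250 bases upstream of the RefSeq start on build GRCm38.p6, at chr6:83677858-83678107 on the minus strand for Cd207 and chr7:128129300-128129549 on the plus strand for Itgax. Capitals mark GGAAGT or its reverse complement ACTTCC, a form of the Ets-family core bound by the myeloid factor PU.1 and its relatives. Shorter and other forms of the core were not searched.
Cd207: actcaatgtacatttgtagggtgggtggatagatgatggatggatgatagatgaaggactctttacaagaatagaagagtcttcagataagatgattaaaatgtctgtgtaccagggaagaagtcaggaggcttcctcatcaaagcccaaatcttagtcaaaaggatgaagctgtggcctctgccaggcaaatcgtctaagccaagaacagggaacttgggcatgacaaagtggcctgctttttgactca
Itgax: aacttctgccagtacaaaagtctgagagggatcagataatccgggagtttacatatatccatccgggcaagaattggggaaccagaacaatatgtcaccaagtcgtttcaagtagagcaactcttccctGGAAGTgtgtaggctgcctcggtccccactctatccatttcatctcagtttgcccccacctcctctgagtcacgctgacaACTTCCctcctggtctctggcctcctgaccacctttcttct
Itgax held this form 2 times, with its first letter 121 bases before the start and, on the other strand, 41 bases before it. Cd207 held none of this form. Upstream of the start, 19.7% of 32851 promoter windows hold it on either strand. Epcam and Zbtb46 held none and Flt3 held 1, so 2 of the 5 genes with a window had a match. Neither the NF-kB consensus (7.25% of windows) nor the interferon-stimulated element core (2.98% of windows), searched on both strands, was found in these 5 windows. The counts for the 5 genes were the same with the 50 bases after the start included. A match is a description of letters, and these arrays did not measure binding.

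Epcam encodes an adhesion molecule that Langerhans cells share with many epithelial cells. Probe set 1416579_a_at measured 11.28 and 11.06 in K5-IKKbeta skin, against 11.44 and 11.54 in wild type skin. Both K5-IKKbeta arrays were below both wild type arrays, by 0.17 log2 units at the nearest pair. The log2 fold change of -0.32 did not pass (95% interval -0.62 to -0.03, unadjusted p = 0.037, adjusted p = 0.14). The other probe set, 1447899_x_at, whose ending marks probes that can bind related transcripts, measured 9.02 and 9.04 in K5-IKKbeta skin and 9.03 and 8.96 in wild type skin. Here the genotypes overlapped, at a log2 fold change of 0.03 (95% interval -0.22 to 0.29, adjusted p = 0.89). Within an array, Epcam (1416579_a_at) minus Cd207 was 1.80 and 2.11 in K5-IKKbeta skin and 3.90 and 4.22 in wild type skin. That is a change of -2.11, with no overlap between the genotypes and the smallest possible exact p of 0.333. Epithelial genes also differed between the genotypes: among 12 epidermal keratinocyte markers 5 rose and 3 fell. Of these 3 rose without K5-IKKbeta array 1 and 1 without either wild type array, and the part of epithelial RNA in the Epcam values was not tested.

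The 3 maturation genes all passed. Cd86 encodes the B7 family ligand that costimulates T cells through Cd28. Its probe set 1449858_at measured 7.03 and 6.80 in K5-IKKbeta skin and 5.12 and 5.39 in wild type skin, a 3.16-fold rise (95% interval 2.49 to 4.01, adjusted p = 8.7e-04). In wild type skin it was dim, at percentiles 21.6 and 26.1 of its arrays. Its probe set 1420404_at measured 7.74 and 7.38 in K5-IKKbeta skin and 6.39 and 6.30 in wild type skin, a 2.32-fold rise (95% interval 1.82 to 2.97, adjusted p = 0.0028). Both probe sets separated the genotypes, and both name the same transcript in the platform annotation.

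Cd83 encodes a membrane protein of mature dendritic cells that stabilises MHC class II and Cd86 at the surface. Probe set 1416111_at measured 7.23 and 7.15 in K5-IKKbeta skin and 5.99 and 6.26 in wild type skin. The K5-IKKbeta pools were nearly equal and the wild type pools were lower and further apart. The rise was 2.09-fold (95% interval 1.69 to 2.60, adjusted p = 0.0030). Cd83 minus Cd86 (1420404_at) within an array overlapped between the genotypes, at -0.51 and -0.23 in K5-IKKbeta skin and -0.40 and -0.04 in wild type skin (change -0.15, exact p = 0.667).

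Ccr7 encodes the receptor for Ccl19 and Ccl21 that guides mature dendritic cells and lymphocytes to lymph nodes. Probe set 1423466_at measured 5.90 and 5.89 in K5-IKKbeta skin and 5.43 and 5.19 in wild type skin. The genotypes did not overlap, but all 4 values were low, between percentiles 23.3 and 33.9 of their arrays. Its rise of 1.51-fold was the smallest of the 6 (95% interval 1.23 to 1.85, adjusted p = 0.022). This call was lost without K5-IKKbeta array 1 (adjusted p = 0.0529), without wild type array 1 (adjusted p = 0.068) and without wild type array 2 (adjusted p = 0.18). The other 5 probe sets that rose kept an adjusted p of 0.041 or less with any single array left out.

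**Figure D2:**
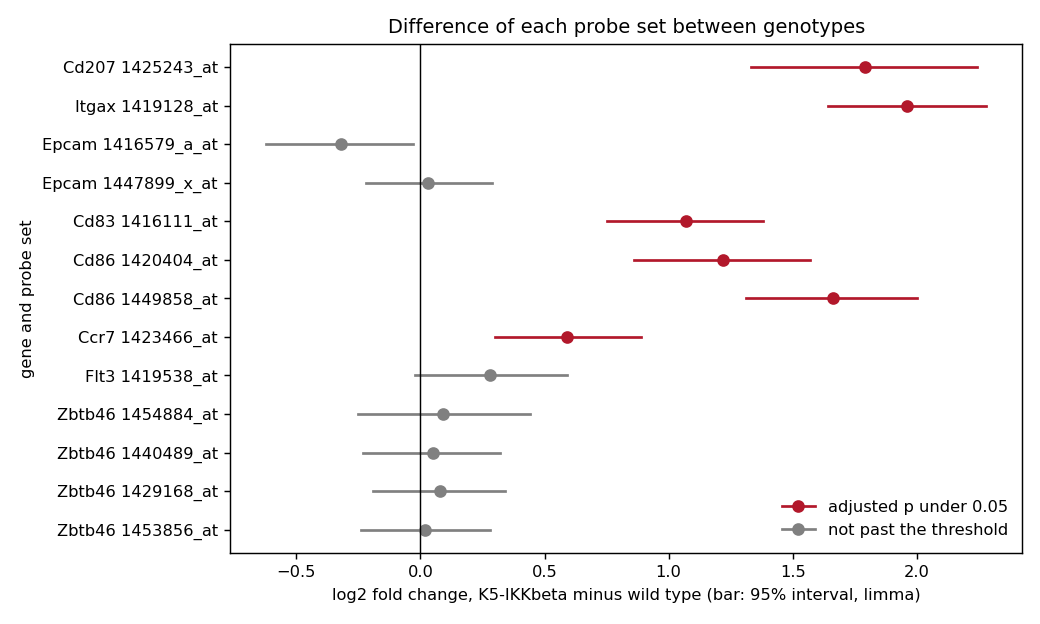
Log2 fold change of each probe set (horizontal axis, K5-IKKbeta minus wild type) with its 95% interval from limma, by gene and probe set (vertical axis). The 6 probe sets past the threshold (red) run from 0.59 for Ccr7 to 1.96 for Itgax, and the 7 others (grey) from -0.32 to 0.28.

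**Figure D3:**
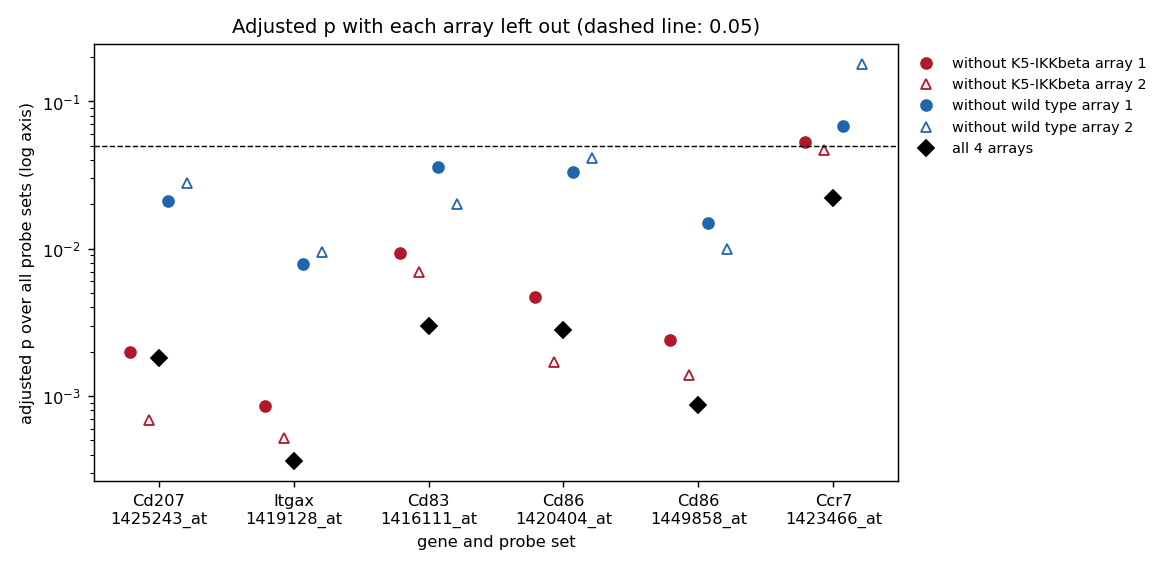
Adjusted p over all tested probe sets (vertical log axis) for the 6 probe sets that rose (horizontal axis), with all 4 arrays (diamonds) and with each array left out (other symbols). Ccr7 crosses the dashed line at 0.05 in 3 of the 4 cases, reaching 0.18, and no other probe set does.

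Flt3 encodes the receptor tyrosine kinase whose ligand drives the growth of dendritic cell precursors. Probe set 1419538_at measured 8.0 and 7.75 in K5-IKKbeta skin and 7.63 and 7.54 in wild type skin. Both K5-IKKbeta arrays lay above both wild type arrays, by only 0.11 log2 units at the nearest pair, and the difference did not pass (log2 fold change 0.28, adjusted p = 0.20). The 95% interval of the fold, 0.985 to 1.51, leaves room for a rise of the size seen for Ccr7.

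Zbtb46 encodes a zinc finger transcription factor of conventional dendritic cells that endothelial cells express too. The probe set 1454884_at measured 6.25 and 6.60 in K5-IKKbeta skin and 6.37 and 6.30 in wild type skin. The K5-IKKbeta arrays lay on either side of the wild type arrays (log2 fold change 0.09, adjusted p = 0.74). For 1440489_at, 1429168_at and 1453856_at the log2 fold changes were 0.05, 0.08 and 0.02 (adjusted p = 0.85, 0.73 and 0.94). The upper ends of the 95% intervals of the fold were 1.36, 1.25, 1.27 and 1.22 in the order named. All 4 probe sets were dim, none above percentile 44.7 of any array. Of the endothelial markers listed, Pecam1 rose (log2 fold change 1.01, adjusted p = 0.0017), as did the lymphatic marker Lyve1 (0.94, adjusted p = 0.0026). Cdh5 (adjusted p = 0.13), Tek (adjusted p = 0.071) and Kdr (adjusted p = 0.54) did not pass. Pdpn, of lymphatic vessels and other stromal cells, and the fibroblast genes Pdgfra and Dcn make up the 5 of 11 endothelial and fibroblast markers that rose. The part of endothelial RNA in the Zbtb46 values was not tested. Nor was the part of other cells, macrophages among them, in the values of Pecam1 and Lyve1.

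The other genes of these cells were taken from lists that did not include the 8, with the brightest probe set standing for a gene. Some genes, such as Itgb2, Cd209a, Cd80 and Csf1r, are on several lists, so the counts of different lists are not independent. Among 18193 genes 14.3% were higher and 6.67% lower by the same test, 21.0% in either direction, and the median gene changed by 0.03 on the log2 scale. Of 14 genes of Langerhans cell development 9 rose and 0 fell (median 0.97). In this list, the dendritic cell subset list and the macrophage list, 0 genes fell at an unadjusted p under 0.05 as well. Csf1, a ligand of Csf1r, measured 9.88 and 9.69 in K5-IKKbeta skin and 8.06 and 8.04 in wild type skin, a 3.32-fold rise (adjusted p = 3.4e-04). Il34, the other ligand of that receptor and the one keratinocytes supply, measured 7.17 and 6.84 in K5-IKKbeta skin and 6.88 and 7.05 in wild type skin and did not pass (adjusted p = 0.90); it was picked for comparison after its value was seen. The transcription factors Irf8 and Runx3 rose 2.49-fold and 2.39-fold.

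Of 12 further surface genes of Langerhans cells 6 rose (median 0.61), led by the pan-leukocyte phosphatase Ptprc at 3.89-fold, the integrin chain Itgb2, which pairs with CD11c, at 3.34-fold and the Fc receptor chain Fcer1g at 2.78-fold. These 3 genes are shared by most myeloid cells. The median of this list ranged from 0.45 to 0.81 with each array left out in turn. Among 13 genes that mark dendritic cell subsets 6 rose and 0 fell (median 0.52), and 3 rose without either wild type array. They included Bst2, an interferon-induced protein that is abundant on plasmacytoid cells, at 3.12-fold, the integrin Itgae at 2.83-fold and the lectin Mgl2 of dermal dendritic cells at 2.78-fold. The other plasmacytoid genes of the list did not pass: Siglech had a log2 fold change of 0.05 (adjusted p = 0.85), Ccr9 of 0.19 (adjusted p = 0.43) and Tcf4 of 0.52 (adjusted p = 0.071). Neither did Xcr1 (adjusted p = 0.27), Batf3 (adjusted p = 0.17), Cd8a (adjusted p = 0.49) or Snx22 (adjusted p = 0.85). The remaining genes that rose were Clec10a (log2 fold change 1.04, adjusted p = 0.0032), Cd209a (1.02, adjusted p = 0.0081) and Cadm1 (0.54, adjusted p = 0.029). The rise of Cadm1 was the smallest of those that passed in this list. With each array left out in turn, its log2 fold change ranged from 0.43 to 0.65, and that of Cd209a from 0.82 to 1.22. The part of T cells and macrophages in the values of Itgae and Mgl2 was not tested. The call of Bst2 was lost without wild type array 1 (adjusted p = 0.0528), and that of Mgl2 without wild type array 1 (adjusted p = 0.11) and without wild type array 2 (adjusted p = 0.089).

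Of 18 maturation and migration genes 10 rose and 1 fell (median 0.60), with 6 and 5 higher without wild type array 1 and 2. Relb, the NF-kB subunit needed for dendritic cell maturation, measured 9.55 and 9.51 in K5-IKKbeta skin and 6.82 and 6.79 in wild type skin, a 6.63-fold rise (adjusted p = 4.5e-05). Birc3, an inhibitor of apoptosis, rose 3.41-fold and Cd274, the ligand of PD-1, 3.12-fold. The part of keratinocytes in the values of this list was not tested. Cd40 (adjusted p = 0.092), Cd80 (adjusted p = 0.68), Fscn1 (adjusted p = 0.67) and Traf1 (adjusted p = 0.75) were among 7 genes that did not pass. The chemokines Ccl22 and Ccl17 rose 1.74-fold (adjusted p = 0.011) and 1.76-fold (adjusted p = 0.039). With each array left out in turn, the log2 fold change of Ccl22 ranged from 0.63 to 0.96 and that of Ccl17 from 0.54 to 1.09. Marcksl1, a substrate of protein kinase C, went the other way (log2 fold change -0.71, adjusted p = 0.022). That call did not hold without K5-IKKbeta array 1 or either wild type array (adjusted p = 0.0511 to 0.17).

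Among 10 genes of ligands and binding partners of the 8, 5 rose and 1 fell. Icam1, an adhesion ligand of Itgb2 integrins, rose 8.41-fold. Ccl20, the chemokine that draws Ccr6-bearing Langerhans cell precursors, measured 9.46 and 8.89 in K5-IKKbeta skin and 7.50 and 6.84 in wild type skin, a 4.01-fold rise (adjusted p = 0.0041). Cldn1, a tight junction claudin that Epcam is known to stabilise in epithelial cells, is the gene that fell (log2 fold change -0.46, adjusted p = 0.039), with the call lost without K5-IKKbeta array 1 or either wild type array (adjusted p = 0.11 to 0.26). All 11 MHC class II presentation genes rose (median 1.77), and 7 did without either wild type array. The chains H2-Aa and H2-Eb1 rose 4.77-fold and 4.08-fold and the invariant chain Cd74 4.14-fold.

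**Figure D4:**
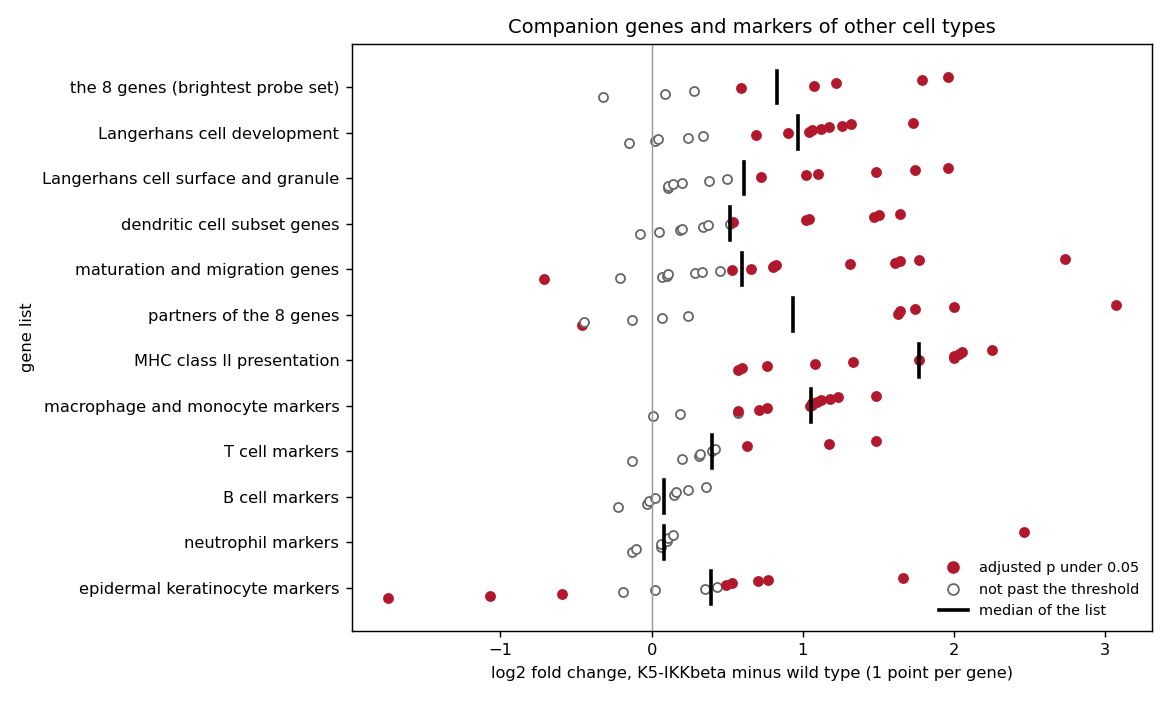
Log2 fold change of single genes (horizontal axis, K5-IKKbeta minus wild type) in the 8 genes, 6 companion lists and marker lists of other cell types (vertical axis); filled points passed an adjusted p under 0.05 and bars mark medians. MHC class II has the highest median, 1.77, and macrophage markers, with a median of 1.06, are right of the 8 genes at 0.83. The hair follicle, melanocyte, muscle and fat, and endothelial and fibroblast lists are not drawn.

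Some markers of other cells that can make Itgax, Cd86, Cd83 or Ccr7 rose as well, mainly those of macrophages and monocytes. Of 14 macrophage and monocyte markers 11 rose and 0 fell (median log2 fold change 1.06), with 8 and 7 higher without wild type array 1 and 2. Their mean log2 value was 9.23 and 9.38 on the K5-IKKbeta arrays and 8.48 and 8.41 on the wild type arrays, and no marker of the list lay below the 25th percentile on every array. T cell markers rose in 3 of 9 (mean 7.47 and 7.32 in K5-IKKbeta skin, 6.89 and 6.83 in wild type skin), with 5 higher without K5-IKKbeta array 2 and 2 higher without any other single array. The 3 T cell markers were Thy1 (log2 fold change 1.48), Cd3g (1.17) and Cd3d (0.63). Thy1 was lower on K5-IKKbeta array 1 than on array 2 (10.94 and 11.46). Cd3g (7.75 and 7.52) and Cd3d (7.56 and 7.33) had the opposite order. The part of cells other than T cells in the Thy1 values was not tested. The other 6 T cell markers, among them Cd4 (-0.13), Cd8a (0.20) and Cd3e (0.40), did not pass. Of 8 B cell markers 0 passed, 0 also at an unadjusted p under 0.05, and all had log2 fold changes of -0.22 to 0.36 (mean 6.40 and 6.28 in K5-IKKbeta skin, 6.34 and 6.18 in wild type skin). Neutrophil markers rose in 1 of 8, S100a9, which activated keratinocytes also make, and in 2 without K5-IKKbeta array 1. Muscle and fat markers rose in 4 of 6, and in 1 without either wild type array. The median log2 fold change of the muscle and fat list was 0.78, against 0.83 for the brightest probe sets of the 8 genes. The part of macrophages and T cells in the values of Itgax, Cd86, Cd83 and Ccr7 was not tested. Cd207 minus the keratinocyte gene Krt14 within an array was -4.33 and -4.54 in K5-IKKbeta skin and -5.64 and -5.75 in wild type skin. The rise of Cd207 thus exceeded that of Krt14 on every pairing of arrays (change 1.26, exact p = 0.333). This holds for Krt14 only, whose own log2 fold change was 0.53. Krt1, of the same keratinocyte list, had 1.66, against 1.79 for Cd207. The median of that list was 0.39, with 5 of 12 genes higher and 3 lower.

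The genes most like Cd207 in pattern over the 4 arrays were Clca2, of a family of chloride channel regulators, Niban3 and the clock output factor Dbp. Each probe set's own mean was subtracted and the Euclidean distance over the 4 arrays was taken among 13073 genes; the distances were 0.14, 0.14 and 0.17 log2 units. For Itgax they were the interferon-induced membrane protein Ifitm1, the complement protease C1s1 and the fatty acid elongase Elovl6, at distances of 0.09, 0.10 and 0.13. With 4 arrays in 2 groups, this likeness is mostly a like difference between the genotypes.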

How the data were processed

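Labelled cRNA was hybridised to Affymetrix arrays, per the labels' protocols. The authors summarised probes with RMA before deposit, per the submitters' processing notes, and the deposited values were taken as log2. The notes give no version or log base; the range of 2.65 to 14.67 is that of log2 values. Genome build and scanner output were not used here. Probe sets were named from the platform annotation: 34958 had 1 symbol, 932 several and 9211 none. A total of 64 control probe sets were left out, which left 45037, with no filter on dim probe sets; 9 of the 13 exceeded the 40th percentile of mean signal.

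limma 3.58.1 in R 4.3.3 was fitted with group as the only term (lmFit, eBayes, two-sided; prior 4.46 and residual 2 degrees of freedom), with Benjamini-Hochberg adjustment and a threshold of 0.05. All adjusted p-values are limma's. Intervals are at 95%. The procedure was tested on simulated data. The number of arrays limits the precision. The p-values rest on the spread between pools, with the error of each probe set drawn toward that of all probe sets.

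The 8 genes, the lists and the tests were chosen with earlier results of these data known. Named are all probe sets of the 8 genes, Ikbkb, up to 3 genes of a list with the largest change past the threshold and any that moved against it (given by counts for other cell types), and the 3 genes nearest in pattern to Cd207 and Itgax. Further genes of the lists were named for comparison after their values were seen. Promoters come from RefSeq (GRCm38.p6); 5 of the 8 genes had a window. Alternatives covered filters, gene summaries, normalization, variance models, a replicate block and each array left out.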

Additional observations from a re-analysis of the deposited data

How the results depend on the processing

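Without moderation across probe sets, which leaves 2 degrees of freedom per test, 19 probe sets passed in all and 0 of the 13 (with 9287.0 and 6.0 at an unadjusted p under 0.05); adjusted p was then 0.19 for Cd207 (1.79), 0.14 for Itgax (1.96), 0.17 for Cd83 (1.07), 0.19 and 0.16 for Cd86 (1.22 and 1.66) and 0.22 for Ccr7 (0.59). Against a 1.2-fold change (treat) 3615 probe sets passed, and Ccr7 (0.59) did not (adjusted p = 0.15). Fewer features were tested per gene: 4435 of 13073 genes passed by the brightest probe set among those above the 40th percentile of signal, which joins a summary and a filter, and 4214 of 18193 by the mean of all probe sets. At the 60th percentile 4 of the 13 were left to test and 1 passed. With each array left out, 2529 to 7096 probe sets passed, 5 to 6 of the 13, and Ccr7 ranged from 0.47 to 0.71. The other settings kept all calls among the 13 where a probe set was tested.

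The log2 fold change of Epcam 1447899_x_at turned to -0.06 (quantile normalization once more), -0.01 (median centring), -0.07 (hair genes left out) and -0.002 (without wild type 2), and its leave-one-out range was -0.002 to 0.07. Zbtb46 turned to -0.08 for 1454884_at without K5-IKKbeta 2, to -0.03 for 1440489_at without wild type 2, and for 1453856_at to -0.02 (median centring), -0.03 (without K5-IKKbeta 1) and -0.001 (without wild type 1). The ranges with each array left out were -0.08 to 0.27, -0.03 to 0.12 and -0.03 to 0.07 for these 3 probe sets of Zbtb46. None passed in either direction.

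Replicate numbers are shared by the groups, but nothing says that they pair the samples; deviations of same-numbered arrays correlated at 0.255 across probe sets. With the replicate block 7135 probe sets passed and the same 6 of the 13. The change of Cd207 minus Krt14 was 1.13 with the mean of all probe sets per gene.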
